A study of Homo sapiens with 16 samples.

Results

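The genes compared were TXNIP, its close relatives ARRDC3 and ARRDC4, the glucose-sensing transcription factors MLXIP (MondoA), MLXIPL (ChREBP) and their partner MLX, and TXN, which encodes the thioredoxin that TXNIP binds. They are 7 of the 58735 genes listed for BxPC3 and PANC-1, established human pancreatic ductal adenocarcinoma (PDAC) lines, and were picked by gene symbol. The set was chosen because TXNIP was about 10.1-fold lower with gemcitabine in BxPC3, so all changes of these genes in BxPC3 are given as a description, without a test. The 16 poly-A-enriched RNA libraries form 4 groups of 4: BxPC3 treated with Gemcitabine, untreated BxPC3, PANC-1 treated with Gemcitabine and untreated PANC-1. Gemcitabine is a deoxycytidine analogue that blocks DNA synthesis. The labels give no dose or time, each line comes from a single tumour, and nothing says that replicates were separate cultures. P-values set a group difference against the scatter of libraries within groups. That scatter may be technical alone, so the p-values do not extend to other cultures. In bulk RNA, fewer cells that express a gene and less of its RNA per cell cannot be told apart.

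TXNIP is an alpha-arrestin that holds reduced thioredoxin in an inactive complex and promotes removal of glucose transporters from the cell surface. Its gene is switched on when glucose-6-phosphate builds up: MondoA or ChREBP, each paired with MLX, then binds carbohydrate response elements in the promoter. ARRDC4 is a further classic target of these factors and also restrains glucose uptake. ARRDC3 serves as an adaptor that brings receptors to ubiquitin ligases of the NEDD4 family.

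All 7 genes are protein coding, and each is on a chromosome of its own. By the deposited tables (GRCh38), TXNIP (ENSG00000265972) lies on the minus strand of chromosome 1 from 145992435 to 145996600 and ARRDC4 (ENSG00000140450) on the plus strand of chromosome 15 from 97960698 to 97973838. ARRDC3 (ENSG00000113369) lies on chromosome 5 from 91368724 to 91383359, and MLXIP (ENSG00000175727) on chromosome 12 from 122078722 to 122147347. MLXIPL (ENSG00000009950) lies on chromosome 7 from 73593194 to 73624543, MLX (ENSG00000108788) on chromosome 17 from 42567068 to 42573239, and TXN (ENSG00000136810) on chromosome 9 from 110243811 to 110256640.

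The promoters of TXNIP and ARRDC4 are shown because these genes were the members lowest relative to control in BxPC3 and are textbook targets of MondoA. Each is the first RefSeq window listed (GRCh38.p14), from 250 bases before the transcription start to 50 bases from it, read 5′ to 3′ on the strand of the gene. The TXNIP window is chr1:145996530-145996829 on the minus strand and the ARRDC4 window chr15:97960453-97960752 on the plus strand. Capitals mark matches to a paired element, to CACGTG (the E-box) and to CCAAT (the box bound by NF-Y), each searched on both strands. The paired element is CACGNG, any 5 bases, CACGNG, taken here as a form of the carbohydrate response element.
TXNIP: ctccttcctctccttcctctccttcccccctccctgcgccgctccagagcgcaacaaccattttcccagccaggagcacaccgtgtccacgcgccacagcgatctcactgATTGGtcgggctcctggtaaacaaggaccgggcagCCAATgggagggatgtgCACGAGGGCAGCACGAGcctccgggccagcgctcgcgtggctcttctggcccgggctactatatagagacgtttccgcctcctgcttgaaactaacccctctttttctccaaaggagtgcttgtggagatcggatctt
ARRDC4: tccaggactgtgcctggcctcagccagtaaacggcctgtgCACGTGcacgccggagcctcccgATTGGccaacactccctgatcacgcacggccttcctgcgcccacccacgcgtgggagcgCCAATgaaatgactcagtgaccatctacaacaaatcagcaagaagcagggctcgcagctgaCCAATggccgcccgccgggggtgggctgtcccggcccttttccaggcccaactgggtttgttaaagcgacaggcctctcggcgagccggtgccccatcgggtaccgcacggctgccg

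The TXNIP window held the paired element as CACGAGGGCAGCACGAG, which begins 88 bases before the start, and a pair of CCAAT matches that begin 140 and 105 bases before it. This paired element was rare: it occurred in 20 of 35116 promoter windows of the same length (0.0570%). Its rarity depends on the letters chosen, and looser forms of a carbohydrate response element were not searched. ARRDC4 held no match to it, but a CACGTG match 210 bases before the start and 3 CCAAT matches. MLX held 1 CACGTG match, 50 bases before the start, and 1 CCAAT match. CACGTG occurred in 7.26% of all windows and CCAAT in 34.6%. No match to any of these motifs was found in the windows of MLXIPL and TXN, and ARRDC3 and MLXIP held 1 CCAAT match each. TXNIP (chr1:145995695-145995994) and ARRDC3 also have a further RefSeq window at another start, and neither of these held a match to any of the motifs. A window without a match says only that these letters were not in it.

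**Figure D1:**
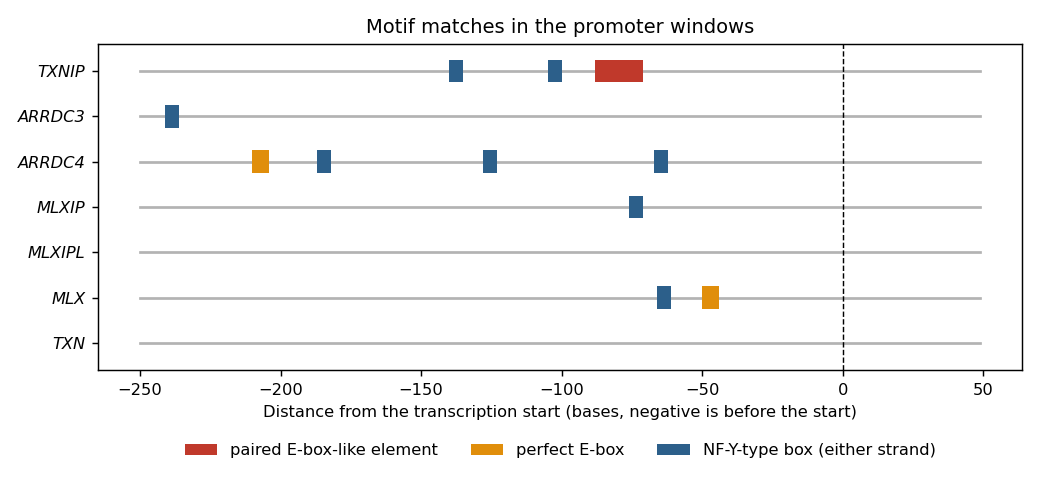
Motif matches in the first promoter window of each gene, by distance from the transcription start in bases. Each grey line is 1 window, the red block in TXNIP is the paired E-box-like element, orange blocks are E-boxes and blue blocks are CCAAT matches on either strand.

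The 16 libraries held 22152034 to 37777222 reads in listed genes, and 3 reads on a gene of 1 kb correspond to 0.0803 to 0.138 FPKM (reads scaled by the authors to gene length and library size). The label checks held: SMAD4, deleted in BxPC3, was at 0 FPKM in its 8 libraries and averaged 3.68 FPKM in gemcitabine and 3.84 FPKM in control PANC-1 libraries. CDKN2A was at 0 FPKM in all libraries of both lines. Of 5 epithelial markers, all averaged over 1 FPKM in BxPC3 and 4 in PANC-1, where CDH1 averaged 0.551 FPKM with gemcitabine and 0.921 FPKM in controls. Epithelial markers summed to 1981 to 2307 FPKM with gemcitabine and 2389 to 2801 FPKM in controls of BxPC3. In PANC-1 they summed to 550 to 756 FPKM with gemcitabine and 337 to 369 FPKM in controls. The lower sum in BxPC3 was that of KRT19 alone, with 1327 FPKM with gemcitabine and 1841 FPKM in controls. The means of KRT8 (360 against 290 FPKM), KRT18 (282 against 247), EPCAM (66.4 against 53.1) and CDH1 (91.0 against 82.5) were higher with gemcitabine there. Leukocyte markers summed to 6.88 to 8.24 FPKM with gemcitabine and 6.90 to 8.14 FPKM in controls in BxPC3, and to 2.27 to 3.99 FPKM and 0.943 to 1.249 FPKM in PANC-1, nearly all of it CD14, while PTPRC was near 0. Endothelial markers summed to 5.59 to 6.29 FPKM with gemcitabine and 1.38 to 1.61 FPKM in controls in BxPC3, and acinar markers to 13.6 to 15.05 FPKM with gemcitabine and 1.65 to 2.11 FPKM in controls. Among the endothelial markers of BxPC3, CDH5 averaged 5.76 FPKM with gemcitabine and 0.603 FPKM in controls, while PECAM1 went the other way, with 0.132 FPKM and 0.756 FPKM, and VWF was low. The acinar sum was nearly all PRSS1, with CPA1 low and AMY2A at 0. In PANC-1 acinar markers summed to 1.07 to 1.59 FPKM with gemcitabine and 0.303 to 0.566 FPKM in controls, again nearly all PRSS1, and endothelial markers to at most 0.0821 FPKM and 0.0129 FPKM. Fibroblast markers, mostly COL1A1, summed to 2.57 to 2.85 FPKM with gemcitabine and 1.74 to 2.11 FPKM in controls of BxPC3, and to 7.87 to 11.4 FPKM and 11.4 to 12.5 FPKM in PANC-1. The part of these markers in the results was not tested. In PANC-1, gemcitabine replicate 1 stood apart from the other 7 libraries on the second principal component (20.4% of the variance). Against the other 3 of its group it deviated by a median of 0.45 (log2) in the 3126 tested genes with the highest transcript GC content and by -0.42 in the 3126 with the lowest.

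TXNIP was the member that differed most between groups in BxPC3. Its level was 77.9, 77.6, 76.5 and 77.7 FPKM in the 4 gemcitabine libraries, against 777, 806, 777 and 777 FPKM in the 4 controls. The groups stood far apart and each was tight, with control replicate 2 alone above its neighbours. The mean was 77.4 ± 0.619 FPKM with gemcitabine and 784 ± 14.5 FPKM in controls (SD, n = 4 each), a log2 change of -3.32 ± 0.04 (SE) on the scale of log2(FPKM + 1). These levels rest on 8453 to 9904 reads per gemcitabine library and 78797 to 105203 per control. Ranked by mean FPKM over all listed genes, TXNIP stood at place 561 with gemcitabine and at place 42 in controls. Of 12215 genes tested in this line 3 had a lower log2 change. TXNIP was chosen for this fall, so that place is a description only, and log2(FPKM + 1) understates changes of low genes.

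In PANC-1, whose values did not choose the genes, TXNIP was expressed at a far lower level and fell modestly. It had 21.4, 23.2, 22.1 and 24.3 FPKM in the gemcitabine libraries, against 30.9, 28.9, 29.97 and 29.9 FPKM in the controls. Every gemcitabine library lay below every control. The means were 22.7 ± 1.28 FPKM with gemcitabine and 29.95 ± 0.819 FPKM in controls (SD, n = 4 each), 1.32-fold lower, with a log2 change of -0.38 ± 0.06 (SE, limma adjusted p = 0.000671). Without gemcitabine replicate 1 the log2 change was -0.36. The size of the change in PANC-1 was thus small beside that in BxPC3; the difference between the lines was not tested, because the BxPC3 change chose the gene.

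ARRDC4 was lower with gemcitabine in both lines, as TXNIP was. In BxPC3 it had 5.25, 4.21, 4.603 and 4.57 FPKM with gemcitabine, against 22.3, 22.2, 22.1 and 22.7 FPKM in controls. The groups did not come near each other, with means of 4.66 ± 0.434 FPKM and 22.3 ± 0.279 FPKM (SD, n = 4 each), 4.79-fold lower with gemcitabine. In PANC-1 it had 3.18, 4.25, 4.14 and 4.37 FPKM with gemcitabine, against 5.64, 5.12, 5.31 and 5.20 FPKM in controls. It fell in PANC-1, every gemcitabine library lying below every control and replicate 1 lowest (log2 change -0.35 ± 0.09 SE, limma adjusted p = 0.00980; -0.27 without replicate 1). The fall of ARRDC4 in PANC-1 was 1.33-fold, close to the 1.32-fold of TXNIP in that line.

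ARRDC3 was lower with gemcitabine in BxPC3 and did not pass the test in PANC-1. In BxPC3 it had 7.08, 7.28, 7.64 and 6.71 FPKM with gemcitabine, against 10.99, 11.3, 11.2 and 11.004 FPKM in controls, 1.55-fold lower without overlap. In PANC-1 it had 9.55, 15.4, 14.9 and 15.9 FPKM with gemcitabine, against 11.1, 10.02, 10.7 and 10.7 FPKM in controls. There 3 gemcitabine libraries lay above every control and replicate 1 below every control. The log2 change in PANC-1 was 0.34 ± 0.14 (SE, 95% interval 0.01 to 0.66, limma adjusted p = 0.0843). Without replicate 1 it was 0.49, and ARRDC3 was called higher (limma adjusted p = 1.41e-06). ARRDC3 has a transcript GC content of 37.6%, and replicate 1 was lower than the other 3 of its group by 0.63 on the log2 scale. With GC trends taken out library by library, the change was 0.32, and it was also called (limma adjusted p = 0.000109). An antisense RNA gene, ARRDC3-AS1, overlaps ARRDC3 by 3011 bases. It reached at most 0.390 FPKM in gemcitabine and 0.673 FPKM in control libraries of PANC-1.

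**Figure D2:**
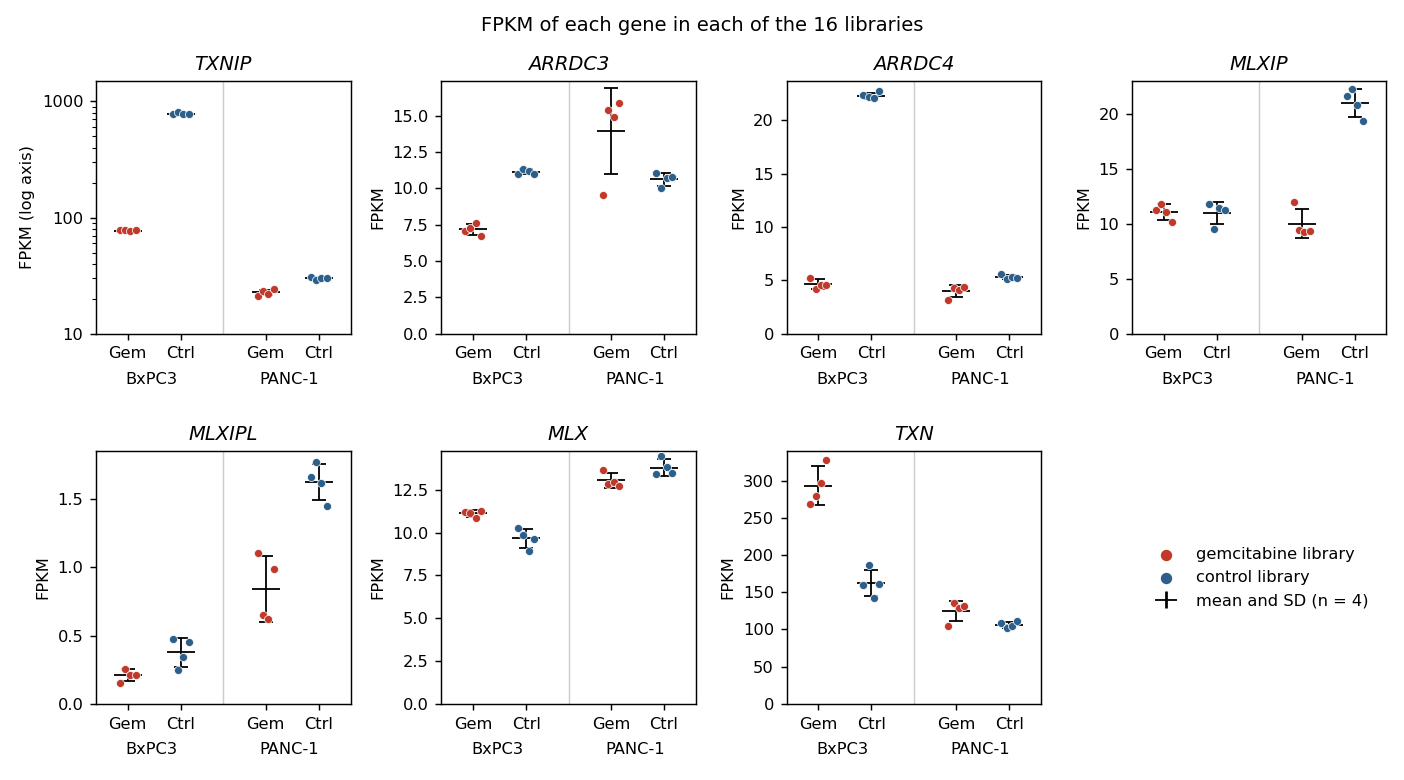
FPKM of the 7 genes in the 16 libraries, 1 point per library, with mean and SD (n = 4) in black; the TXNIP panel has a log axis and all others start at 0. TXNIP and ARRDC4 were lower with gemcitabine in both lines without overlap, and for ARRDC3 and MLXIP in PANC-1 gemcitabine replicate 1 lies apart from the other 3.

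MLXIP fell in PANC-1, while its groups overlapped in BxPC3. It encodes MondoA, which is held at the outer mitochondrial membrane and enters the nucleus when glucose-6-phosphate rises. In PANC-1 MLXIP had 12.02, 9.43, 9.24 and 9.40 FPKM with gemcitabine, against 21.6, 22.4, 20.8 and 19.4 FPKM in controls. All gemcitabine libraries lay well below all controls, replicate 1 being the highest of them. MLXIP fell 2.10-fold (log2 change -1.01 ± 0.09 SE, limma adjusted p = 3.10e-05) and 2.25-fold without replicate 1, whose reads of this GC-rich transcript (57.9% GC) stood 0.33 (log2) above the other 3. In BxPC3 MLXIP had 11.3, 11.9, 11.1 and 10.1 FPKM with gemcitabine, against 11.8, 9.55, 11.4 and 11.3 FPKM in controls. These groups overlapped and their means were nearly equal, at 11.1 ± 0.709 FPKM with gemcitabine and 11.03 ± 1.01 FPKM in controls (SD, n = 4 each; log2 change 0.01 ± 0.07 SE). Leaving out control replicate 2 made this change -0.05, and leaving out gemcitabine replicate 2 made it -0.02. The part of MLXIP in the change of TXNIP was not tested in either line, and RNA levels do not show where MondoA lies in the cell.

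MLX, the partner that MondoA and ChREBP need to bind DNA, differed little between groups. In BxPC3 it had 11.2, 11.2, 10.9 and 11.3 FPKM with gemcitabine, against 10.3, 9.89, 8.93 and 9.61 FPKM in controls, slightly higher without overlap (1.15-fold). In PANC-1 it had 13.7, 12.9, 13.0 and 12.7 FPKM with gemcitabine, against 13.4, 14.5, 13.8 and 13.5 FPKM in controls. The PANC-1 groups overlapped, and MLX did not pass the test (log2 change -0.08 ± 0.05 SE, 95% interval -0.20 to 0.05, limma adjusted p = 0.294; adjusted p = 0.0343 without gemcitabine replicate 1 and 0.0451 with the GC trend removed). A processed pseudogene of MLX reached at most 0.554 FPKM in gemcitabine and 0.446 FPKM in control libraries of either line. PSMC3IP on the opposite strand overlaps MLX by 925 bases and reached at most 3.23 FPKM in gemcitabine and 2.49 FPKM in control libraries. Reads of either could be counted with MLX.

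MLXIPL, which encodes ChREBP, the form prominent in liver and fat, was the lowest of the 7 genes. In PANC-1 it had 1.11, 0.653, 0.619 and 0.987 FPKM with gemcitabine, against 1.66, 1.77, 1.62 and 1.45 FPKM in controls. It fell in PANC-1 without overlap (1.93-fold, log2 change -0.52 ± 0.10 SE, limma adjusted p = 0.00222), on 76 to 153 reads per gemcitabine library and 172 to 213 per control. It passed the filter of 1 FPKM in at least 4 libraries through the 4 controls and gemcitabine replicate 1, and not through the other gemcitabine libraries, which bears on its call. Its log2 change was -0.80 with TPM scaling, -0.91 with a pseudocount of 0.1 and -1.02 with limma-voom on reads. In BxPC3 it had 0.152, 0.260, 0.211 and 0.212 FPKM with gemcitabine, against 0.475, 0.246, 0.344 and 0.450 FPKM in controls. It was not tested in that line, where the groups overlapped at 24 to 44 reads per gemcitabine library and 41 to 81 per control.

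TXN encodes cytosolic thioredoxin, the disulfide reductase that TXNIP inhibits, and it moved opposite to TXNIP in BxPC3. There it had 268, 280, 297 and 328 FPKM with gemcitabine, against 159, 186, 143 and 162 FPKM in controls. The groups did not overlap, and the mean was 1.81-fold higher with gemcitabine. In PANC-1 it had 105, 136, 129 and 131 FPKM with gemcitabine, against 108, 101, 104 and 111 FPKM in controls. There 3 gemcitabine libraries lay above every control and replicate 1 lay among them. TXN did not pass the test in PANC-1 (log2 change 0.23 ± 0.08 SE, 95% interval 0.04 to 0.42, limma adjusted p = 0.0537). The 7 TXN pseudogenes listed, whose reads could be mistaken for TXN, reached at most 0.661 FPKM in gemcitabine and 0.258 FPKM in control libraries of either line. Without replicate 1 the log2 change was 0.31 and TXN was called higher (limma adjusted p = 2.37e-05), as it was with GC trends taken out (log2 change 0.20, limma adjusted p = 0.000345).

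Counted together, 6 of the 7 genes passed the filter in BxPC3, and in PANC-1 all 7 did. TXNIP, ARRDC4 and MLXIP were called lower in PANC-1, and none of the 7 higher. MLXIPL was called lower too, but it passed the filter through the controls, where it is high, so its call is not counted beside theirs. Of all 12508 genes tested there, 24.0% were called lower, 20.7% higher and 44.8% in either direction. The groups of TXNIP, ARRDC4 and MLXIP did not overlap, as was true of 45.8% of tested genes. Without gemcitabine replicate 1, when 69.8% of tested genes were called, ARRDC3 and TXN were called higher and TXNIP, ARRDC4, MLXIP and MLX lower. In BxPC3, 5 of the 6 genes past the filter had groups that did not overlap, where 67.5% of tested genes had none; since this comparison chose the genes, the count is given as a description.

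**Figure D3:**
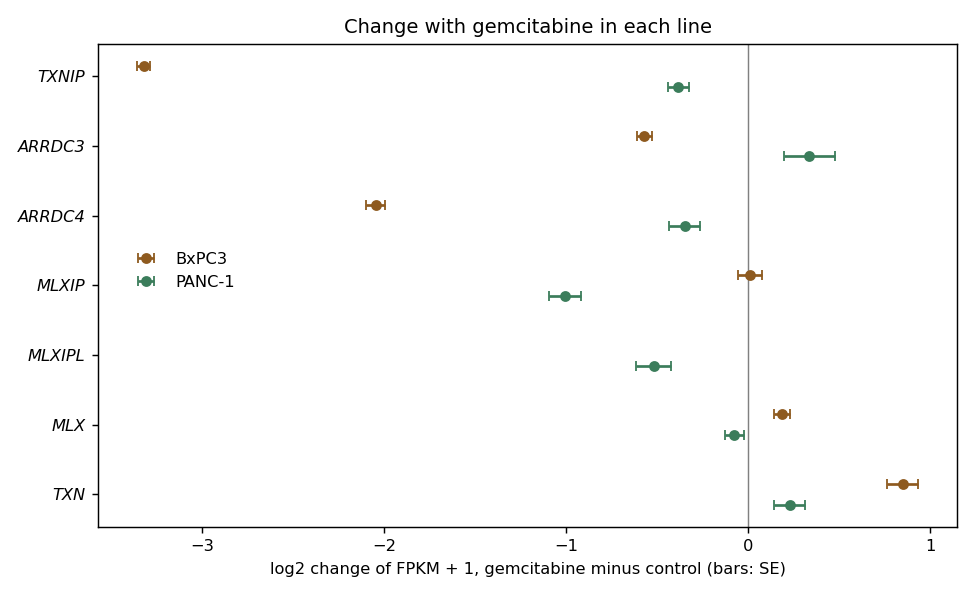
Log2 change of FPKM + 1 with gemcitabine, gemcitabine minus control, for each gene in BxPC3 (brown) and PANC-1 (green), with SE bars from the limma fit. TXNIP (-3.32) and ARRDC4 (-2.05) lie far to the left in BxPC3, MLXIP (-1.01) is the lowest of the 7 in PANC-1, and MLXIPL was too low to fit in BxPC3.

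The balance between TXNIP and TXN transcripts, as the ratio of their FPKM in each library, set untreated BxPC3 apart from the other groups. In BxPC3 the ratio was 0.290, 0.277, 0.258 and 0.237 with gemcitabine, against 4.87, 4.33, 5.44 and 4.81 in controls. TXNIP transcripts thus outnumbered those of TXN per length in every untreated BxPC3 library and in none of the treated ones. The fall of TXNIP in BxPC3 chose the genes, so the ratio in that line is a description only. In PANC-1 the ratio was 0.203, 0.171, 0.171 and 0.186 with gemcitabine, against 0.286, 0.285, 0.287 and 0.269 in controls, also without overlap. Treated BxPC3 averaged 0.266 ± 0.0234 and untreated PANC-1 0.282 ± 0.00866 (SD, n = 4 each). A ratio of FPKM within a library does not depend on the scaling between libraries. The ratio of MLXIP to MLX in PANC-1 was 0.713 to 0.880 with gemcitabine and 1.44 to 1.61 in controls, and in BxPC3 0.900 to 1.06 with gemcitabine and 0.967 to 1.28 in controls.

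**Figure D4:**
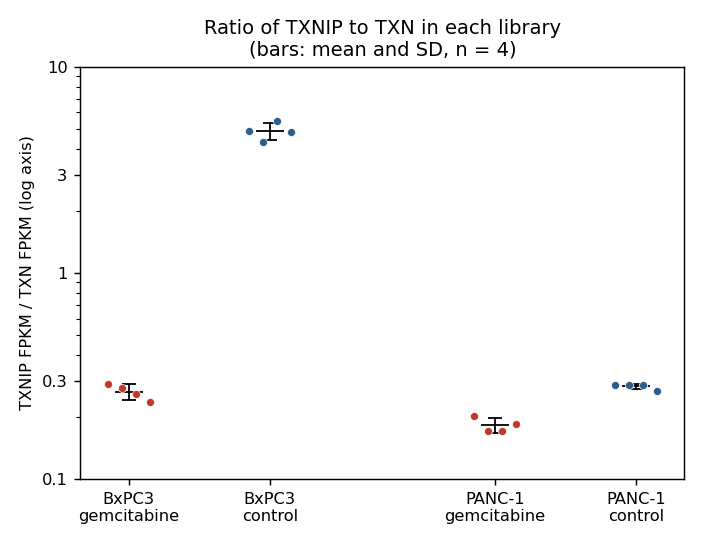
Ratio of TXNIP to TXN FPKM in each library on a log axis, with mean and SD (n = 4) in black. The 4 untreated BxPC3 libraries lie between 4.33 and 5.44 and all other libraries below 0.3.

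Levels in the 4 groups were also set in order, although the tables of the lines were scaled separately, so values across lines are given side by side without a test. TXNIP was highest in untreated BxPC3, then in treated BxPC3 (77.4 FPKM), untreated PANC-1 (29.95 FPKM) and treated PANC-1 (22.7 FPKM), with no overlap between neighbours. For ARRDC4 untreated BxPC3 (22.3 FPKM) stood above untreated PANC-1 (5.32 FPKM), treated BxPC3 (4.66 FPKM) and treated PANC-1 (3.99 FPKM), and neighbours among these last groups overlapped. For ARRDC3 the order was treated PANC-1 (13.9 FPKM), untreated BxPC3 (11.1 FPKM), untreated PANC-1 (10.6 FPKM) and treated BxPC3 (7.18 FPKM), and only the last stood clear of its neighbour. MLXIP was highest in untreated PANC-1 (21.1 FPKM), clear of the other groups, which averaged 10.02 to 11.1 FPKM and overlapped. MLXIPL was higher in PANC-1 than in BxPC3 in both conditions, and its BxPC3 groups overlapped. MLX was highest in the overlapping PANC-1 groups, followed by treated and then untreated BxPC3, each clear of the next. TXN was highest in treated BxPC3 (293 FPKM), then in untreated BxPC3 (162 FPKM), and the PANC-1 groups below them overlapped.

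Genes around this pathway were described with lists written from textbook knowledge. Of 80 genes listed, 64 were tested in BxPC3 and 49 were called (30 higher, 19 lower), 76.6% where 73.4% of all tested genes were called (37.3% higher, 36.1% lower). In PANC-1, 65 were tested and 30 were called (20 higher, 10 lower), 46.2% where 44.8% of all were called (20.7% higher, 24.0% lower). With GC trends taken out, 24 of the listed genes were called higher and 21 lower in PANC-1. Of all 12504 genes in that fit, 3739 were called higher and 4494 lower. The shares called in either direction did not stand away from the background. By direction, more listed genes were called higher than lower in PANC-1, while among all genes more were lower, and this was not tested. The median log2 change of the listed genes was 0.08 in BxPC3 and 0.02 in PANC-1, beside 0.00 and -0.02 over all tested genes. Counts by list that follow have these same shares as background, and no list was tested as a set. For counts without gemcitabine replicate 1 in PANC-1 the background is 69.8% of all tested genes called.

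Of the other alpha-arrestins, ARRDC5 was too low to test in both lines, and ARRDC1 and ARRDC2 were not called higher with all libraries. With the GC trend removed 1 of these was called higher in each line, and with TPM scaling 1 in BxPC3. ARRDC2 fell slightly in BxPC3 (6.07 ± 0.134 FPKM with gemcitabine and 7.29 ± 0.173 FPKM in controls, limma adjusted p = 0.000186). ARRDC1 averaged 32.7 FPKM with gemcitabine and 32.3 FPKM in controls of BxPC3 and did not pass (limma adjusted p = 0.695). In PANC-1 neither passed: ARRDC1 averaged 7.68 FPKM with gemcitabine and 7.19 FPKM in controls, and ARRDC2 4.597 FPKM with gemcitabine and 4.56 FPKM in controls.

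The repressors MNT, MXD1 and MXD4 compete for MLX. In BxPC3 MXD1 rose 1.24-fold and MXD4 fell 1.46-fold (limma adjusted p = 0.00166 and 3.00e-05), so that 1 of 3 was higher and 2 were lower. The count of lower genes was 1 without control replicate 1 or 3, without gemcitabine replicate 1 or 4, and with TPM scaling, limma-voom, no filter or the GC trend removed. In PANC-1 MXD1 rose 1.21-fold (limma adjusted p = 0.0229), a call lost without control replicate 1 or 2, without gemcitabine replicate 3 or 4, and with the replicate number as a block. MXD4 did not pass there (5.28 ± 1.26 FPKM with gemcitabine, 6.90 ± 0.564 FPKM in controls, limma adjusted p = 0.0516), and the list had 1 lower gene in place of none without gemcitabine replicate 1 and with protein-coding genes only, TPM scaling, limma-voom, plain limma (no trend or robust option) or the GC trend removed.

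The thioredoxin system, which includes thioredoxin reductases, peroxiredoxins and methionine sulfoxide reductases, was tested with 18 genes. In BxPC3 12 were higher and 4 lower, with a median log2 change of 0.24. Of all tested genes of that line 37.3% were called higher and 36.1% lower. TXNRD1, the cytosolic thioredoxin reductase, rose 2.67-fold (28.3 ± 1.12 FPKM with gemcitabine and 10.6 ± 0.130 FPKM in controls, limma adjusted p = 1.11e-09), and the glutaredoxin GLRX rose 2.40-fold (limma adjusted p = 4.03e-08). The PANC-1 counts were 4 higher and 5 lower, with a median of -0.04, or 4 higher and 8 lower without gemcitabine replicate 1. GLRX rose 2.71-fold there (2.03 ± 0.170 FPKM with gemcitabine and 0.748 ± 0.0574 FPKM in controls, limma adjusted p = 1.08e-05), but it passed the filter through the gemcitabine libraries alone, so this call depends on the change itself. The mitochondrial methionine sulfoxide reductase MSRB2 fell 1.73-fold (limma adjusted p = 3.75e-05).

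Genes described elsewhere as ChREBP or MondoA targets went both ways, and 10 of 16 were high enough to test in BxPC3 and 11 in PANC-1. Many of these targets are known from liver. In BxPC3 4 were higher and 4 lower. ACLY, which makes cytosolic acetyl-CoA, rose 2.06-fold (limma adjusted p = 5.37e-08), while the transcription factor gene BHLHE40 fell 1.91-fold (46.05 ± 0.799 FPKM with gemcitabine and 87.9 ± 1.62 FPKM in controls, limma adjusted p = 5.99e-09). The PANC-1 counts were 3 higher and 2 lower, or 3 higher and 5 lower without gemcitabine replicate 1. HK2, the inducible hexokinase that makes glucose-6-phosphate, rose 4.82-fold (8.10 ± 0.507 FPKM with gemcitabine and 1.68 ± 0.0797 FPKM in controls, limma adjusted p = 1.28e-07), and the acetyl-CoA carboxylase ACACB fell 1.97-fold (limma adjusted p = 0.000149), having passed the filter through the controls alone. The lower count in PANC-1 was 4 with limma-voom and 5 with the GC trend removed.

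Glucose uptake and the enzymes that make or use glucose-6-phosphate were called higher for 5 of 10 tested genes in BxPC3 and lower for 3. The hexokinase-related gene HKDC1 rose 3.16-fold (limma adjusted p = 2.85e-08), having passed the filter through the gemcitabine libraries alone. In PANC-1 5 of 11 were higher and 1 lower, and 5 and 3 without gemcitabine replicate 1. SLC2A1, the glucose transporter GLUT1 that TXNIP helps to remove from the surface, rose 2.89-fold (28.96 ± 4.44 FPKM with gemcitabine and 10.02 ± 0.808 FPKM in controls, limma adjusted p = 9.63e-06).

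Ubiquitin ligases of the NEDD4 family bind alpha-arrestins, and ITCH marks TXNIP for degradation. In BxPC3 3 of 7 tested were higher and 1 lower, or 2 higher and 2 lower without control replicate 2. The higher count was also 2 without control replicate 1 or 4 or gemcitabine replicate 2, 3 or 4. It was 2 as well with no filter or the replicate number as a block, and 4 with TPM scaling or limma-voom. NEDD4L rose 1.35-fold (limma adjusted p = 6.22e-05) and WWP1 fell 1.30-fold (limma adjusted p = 5.56e-05). In PANC-1 4 of 7 were higher and none lower: NEDD4L rose 2.62-fold (3.93 ± 0.214 FPKM with gemcitabine and 1.501 ± 0.0670 FPKM in controls, limma adjusted p = 1.86e-06) and SMURF2 1.72-fold (limma adjusted p = 2.05e-05). With the GC trend removed 5 were higher and 1 lower.

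Subunits of the AMP-activated kinase, which phosphorylates TXNIP, were called higher for 2 and lower for 3 of 6 tested in BxPC3. The beta subunit PRKAB1 fell 1.84-fold (limma adjusted p = 2.28e-08) and the gamma subunit PRKAG2 rose 1.57-fold (limma adjusted p = 1.23e-06). In PANC-1 2 of 6 were lower and none higher, or 3 lower and 2 higher without gemcitabine replicate 1, and 4 lower with the GC trend removed. PRKAB1 fell 1.51-fold (limma adjusted p = 3.86e-05) and PRKAB2 1.48-fold (limma adjusted p = 0.00151).

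Transcription factors described at the TXNIP promoter were called higher for 4 of 9 in BxPC3 and lower for 1. The lower count was 0 without control replicate 1, 3 or 4 or gemcitabine replicate 3 or 4, and with TPM scaling, limma-voom, no filter or the replicate number as a block. It was 2 without control replicate 2 and with median-ratio scaling or the GC trend removed. VDR, the vitamin D receptor, rose 2.26-fold (limma adjusted p = 1.61e-07) and KLF6 1.99-fold (limma adjusted p = 6.12e-08). In PANC-1 4 of 8 were higher and none lower, or 4 higher and 2 lower without gemcitabine replicate 1, and 5 and 2 with the GC trend removed. NFYA, a subunit of the factor that binds CCAAT boxes, rose 1.40-fold (limma adjusted p = 0.000147) and FOXO3 1.36-fold (limma adjusted p = 0.000240).

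**Figure D5:**
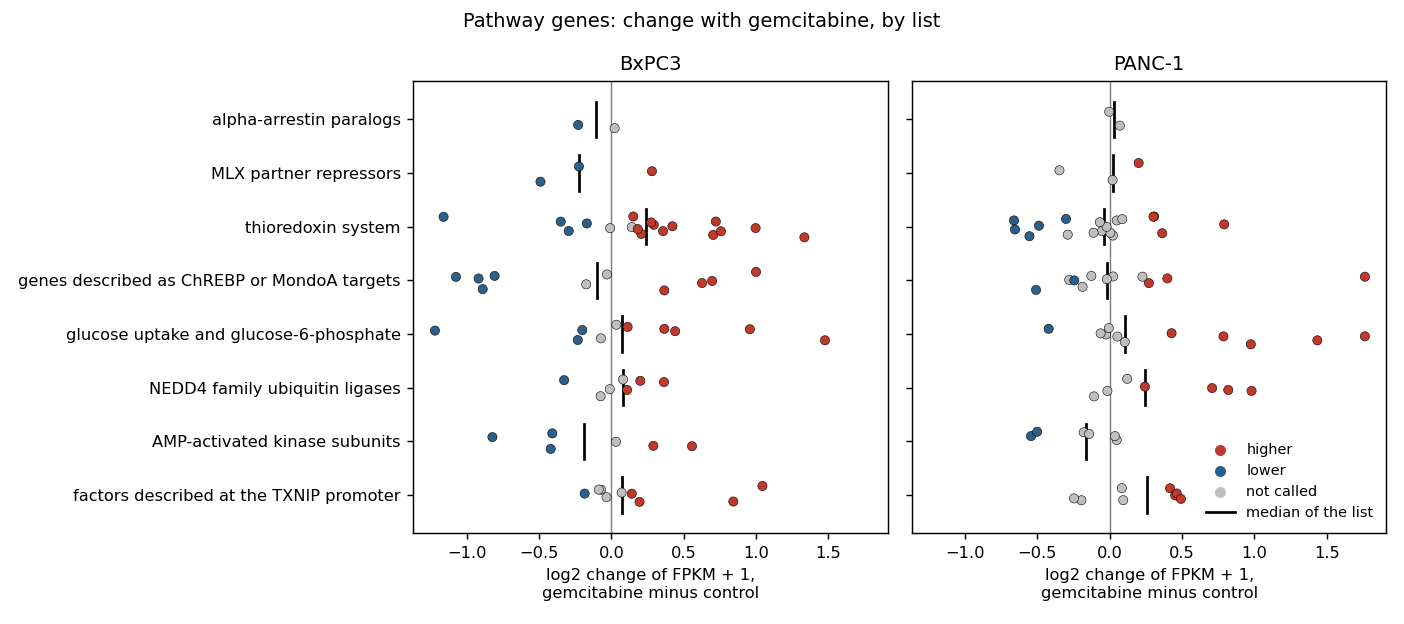
Log2 change of FPKM + 1 with gemcitabine, gemcitabine minus control, of the tested genes of each list in BxPC3 and PANC-1, 1 point per gene, coloured by call at an adjusted p under 0.05, with the list median as a black bar. In BxPC3 the thioredoxin system has its median at 0.24, and in PANC-1 HK2 at 1.76 lies farthest to the right.

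The genes whose values over all 16 libraries were most like those of TXNIP were found by the root mean square distance of log2(FPKM + 1), each library set against the mean of the controls of its line, among 9754 protein-coding genes tested in both lines. Since the BxPC3 values weigh most and chose TXNIP, this is a description. The 5 nearest were NUPR1, a stress-induced chromatin protein (distance 0.25), the receptor gene FGFR3 (0.32), the uroplakin gene UPK3B (0.44), TMC4 (0.47) and the lysosomal glucosidase gene GAA (0.51). ARRDC4 came at place 12 (0.64) and ARRDC3 at place 1103 (1.43). Of the 5 nearest, FGFR3 and TMC4 passed the filter in PANC-1 through the controls alone, where they are high. Their fall in PANC-1 and their place here depend on that. FGFR3 averaged 18.3 ± 0.823 FPKM with gemcitabine and 125 ± 1.69 FPKM in controls of BxPC3, and 0.726 ± 0.146 FPKM and 1.16 ± 0.112 FPKM in PANC-1. UPK3B averaged 108 ± 6.71 FPKM with gemcitabine and 608 ± 40.4 FPKM in controls of BxPC3, and 1.26 ± 0.323 FPKM and 1.97 ± 0.160 FPKM in PANC-1. These 2 genes were at a high level in untreated BxPC3 and low in PANC-1, as TXNIP was on a smaller scale. NUPR1 averaged 1.73 ± 0.165 FPKM with gemcitabine and 33.1 ± 2.61 FPKM in controls of BxPC3, and 23.6 ± 3.22 FPKM and 24.9 ± 0.645 FPKM in PANC-1. GAA was lower in every gemcitabine library than in every control of both lines, with 8.39 to 15.2 FPKM with gemcitabine and 23.1 to 25.04 FPKM in controls of PANC-1.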

How the data were processed

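Poly-A-enriched RNA of BxPC3 and PANC-1, with Gemcitabine or untreated, was sequenced in 4 libraries per group, grouped and numbered by title. FPKM per gene and library, in a table for each line, is what the authors deposited, per the file headers; CASAVA and HISAT2 are named per the submitters' processing notes. The sources used here do not give the counting program, its strand setting or any filter. The notes name the mouse build mm10, but all gene identifiers are human, and 58724 of 58735 have the start and end of GENCODE 29, so coordinates are GRCh38. FPKM times the deposited gene length was divided by a step fitted for each library from the same values. The result was a whole number of reads within 0.02 for 100% of values above 0, which gives reads per gene. Their totals were 0.963 to 1.05 times the size implied by the step, so the tables may hold a scaling factor. All pairs of libraries within groups differed by more than sampling noise (chi-square per degree of freedom at least 2.07).

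Each line was fitted alone with limma 3.58.1 in R 4.3.3 (trend and robust) on log2(FPKM + 1), which understates changes of low genes, over genes reaching 1 FPKM in 4 or more libraries. P-values had Benjamini-Hochberg adjustment over all tested genes and a threshold of 0.05. Folds are ratios of mean FPKM. The fit was tested on simulated reads, with the same dispersion for all genes and no library that stood apart. That test does not bear on calls that turn on gemcitabine replicate 1 of PANC-1. Promoter windows were RefSeq sequences. Alternatives are given in the closing section. The genes, lists and tests were chosen with earlier results of these data known. Besides the 7 genes, the rule for names took up to 4 genes of the smallest p per list and line, of which at most the first 2 are named (1 item is not reported here), the 5 genes most like TXNIP, and SMAD4 and CDKN2A as label checks. Tables were read with pandas 2.3.3 and figures drawn with matplotlib 3.10.9. Protein sequences were not used here.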

Additional observations from a re-analysis of the deposited data

Results flagged for a closer look

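A library far from the others of its group marked 10 of the 110 groups of 4 looked at. The limit used marks about 1 in 20 independent groups of normal values. These groups share the same libraries, so their count cannot be set against that rate. The measure is the gap to the nearest library over the range of the group. In PANC-1 gemcitabine replicate 1 was low for ARRDC3 (9.55 against 14.9 to 15.9 FPKM, 0.846 of the range). It was high for MLXIP (12.02 against 9.24 to 9.43 FPKM, 0.934), MXD4 (7.17 against 4.57 to 4.74 FPKM, 0.936) and GAA (15.2 against 8.39 to 8.97 FPKM, 0.914). In the same group replicate 2 was low for PRKAB1 (8.36 against 8.80 to 8.86 FPKM, 0.868). Among PANC-1 controls replicate 2 was low for MSRB2 (6.16 against 6.82 to 6.94 FPKM, 0.848).

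Among BxPC3 controls replicate 2 was high for TXNIP (806 against 776.7 to 777.0 FPKM, 0.991), for NUPR1 (37.0 against 31.4 to 32.3 FPKM, 0.831) and for UPK3B (668 against 579 to 594 FPKM, 0.831), and low for ACLY (15.7 against 17.5 to 17.9 FPKM, 0.836). Without that library the log2 change of TXNIP in BxPC3 was -3.31, against -3.32 with all libraries. NUPR1 and UPK3B were picked for values like those of TXNIP, so their marks in the same library are not separate from its own.

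For 3 listed genes the gemcitabine libraries all lay on opposite sides of the controls in BxPC3 and PANC-1. Groups did not overlap, in either direction, for 67.5% of all tested genes in BxPC3 and for 45.8% in PANC-1. The share of all genes with opposite directions in these lines was not counted, so whether 3 is many cannot be said. The log2 change of BHLHE40 was -0.92 in BxPC3 and 0.27 in PANC-1, a gap of -1.19. That of KLF6 was 0.84 and -0.20, a gap of 1.04, and that of PRKAB2 was 0.29 and -0.50, a gap of 0.79. The KLF6 change in PANC-1 was not called. These differences between lines were not tested.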

How the results depend on the processing

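In PANC-1 TXNIP, ARRDC4 and MLXIP kept their direction and their call under every alternative run, with limma adjusted p of at most 0.0100, 0.0372 and 0.000480. ARRDC3, TXN and MLX were not called with all libraries, and were called without gemcitabine replicate 1 and with the GC trend removed (log2 change 0.32, 0.20 and -0.080); the cause was not tested. With 1 library left out ARRDC3 ran from 0.27 to 0.49, TXN from 0.19 to 0.31 and MLX from -0.096 to -0.054. The genes called in PANC-1 numbered 5602, and 4641 to 8728 with 1 library left out, the highest without gemcitabine replicate 1; the listed genes called were 30 (20 higher, 10 lower), and 45 (24 higher, 21 lower) with the GC trend removed. In BxPC3 some changes moved by more than the spread between replicates: TXNIP to -3.35 with the GC trend removed, -3.25 with TPM scaling and -3.29 with limma-voom; ARRDC4 to -2.21 with limma-voom and -2.24 with a pseudocount of 0.1, which also took ARRDC3 to -0.63; and MLX to 0.28 with TPM scaling and 0.26 with limma-voom. MLXIP in BxPC3 ran from -0.051 to 0.049 with 1 library left out, below 0 without control replicate 2 (-0.051) or gemcitabine replicate 2 (-0.019). With the replicate number as a block 8553 genes were called in BxPC3 and 4639 in PANC-1, and no call among the 7 genes changed, while the MXD1 call in PANC-1 was lost; same-numbered libraries correlated at -0.33 to 0.18 in BxPC3 and -0.38 to 0.19 in PANC-1, and not every library correlated best with its own number, so no pairing was used. The other alternatives were median-ratio scaling, no filter, limma without trend and robust, and protein-coding genes only. Limma-voom and the GC trend were chosen after seeing the data. A planned count test was not run, since the deposited unit is FPKM. Depth limits MLXIPL most; a floor of 3 reads covers counting error only.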

Other observations

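Genes whose promoter windows hold the paired E-box-like element found at TXNIP were counted as well, matched by symbol and with TXNIP among them. In BxPC3, 14 were tested, of which 3 were called higher and 4 lower (21.4% and 28.6%), where 38.8% and 35.5% of all 8830 tested genes with a window were. In PANC-1, 16 were tested, of which 3 were higher and 5 lower (18.8% and 31.2%), where 20.9% and 24.0% of 9033 were. Their median log2 change was 0.00 in BxPC3 and -0.04 in PANC-1, beside 0.02 and -0.02 over all tested genes with a window. Genes with a CACGTG match numbered 1117 in BxPC3 (438 higher, 376 lower) and 1184 in PANC-1 (212 higher, 288 lower), with medians of 0.03 and -0.04.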
